A study of Mus musculus with 333 samples.

Results

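The 37 cells compared here are single mouse brain cells of the oligodendrocyte lineage, out of 333 cells in the series. They are all 21 cells labelled Myelinating Oligodendrocyte and all 16 cells labelled OPC (oligodendrocyte precursor cell), and none was left out. Of the myelinating oligodendrocytes, 6 came from the visual cortex of adult mice and 15 from the hippocampus of mice at postnatal day 12 (P12). Of the OPCs, 2 were taken at embryonic day 18.5 (E18.5), 6 came from P12 hippocampus, 4 from P12 visual cortex and 4 from adult visual cortex. The E18.5 pair is titled mThal, but its region label reads visual cortex, so its region is uncertain. All cells are labelled wildtype and none carries a treatment label. The design names 5 mice for each stage, but which mouse gave which cell is not labelled. Each cell type within each set is therefore 1 sample, cells are not replicates, and no p-value is given: a difference is described by its size, by its range when each cell is left out in turn, and by whether it recurs in the sets. How the submitters named the cell types is not given in the sources used here, and marker genes may have entered the naming, so values of marker genes describe the labelled cells and are not independent support for the labels.

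OPCs are the dividing progenitors of the lineage. They carry the PDGF receptor alpha and the proteoglycan NG2 on their surface, receive synapses from neurons, and pass through a short premyelinating stage before they become oligodendrocytes. Myelinating oligodendrocytes wrap axons in a membrane that is compacted by its membrane proteins, held to the axon at the paranode, and built from large amounts of cholesterol and galactolipids.

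The libraries of the 2 types differed in ways that bear on every ratio below. Reads per cell ranged from 1242574 to 1980294 in adult and from 1793821 to 4849603 in P12 myelinating oligodendrocytes, against 387332 to 2052342 in OPCs. Each cell was thinned to 350000 reads before genes were counted. The adult myelinating oligodendrocytes then showed 1785 to 2313 genes (median 2006) and the P12 ones 680 to 955 genes (median 759), against 1340 to 3925 genes in OPCs (median 2918). The 50 most abundant genes took 30.4% to 34.9% of the reads of an adult and 47.8% to 61.6% of those of a P12 myelinating oligodendrocyte, against 14.1% to 36.2% of the reads of an OPC. The 15 P12 myelinating oligodendrocytes thus stood apart from all other cells in both measures. Their cell IDs also form a run separate from that of the P12 hippocampus OPCs, while adult cells of both types share 1 run of IDs. The adult comparison is thus the closer match in run of IDs. Of its 4 OPCs, however, cells 43 and 51 carried neuronal markers at levels given below. What a run stands for is not given in the sources used here.

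**Figure D1:**
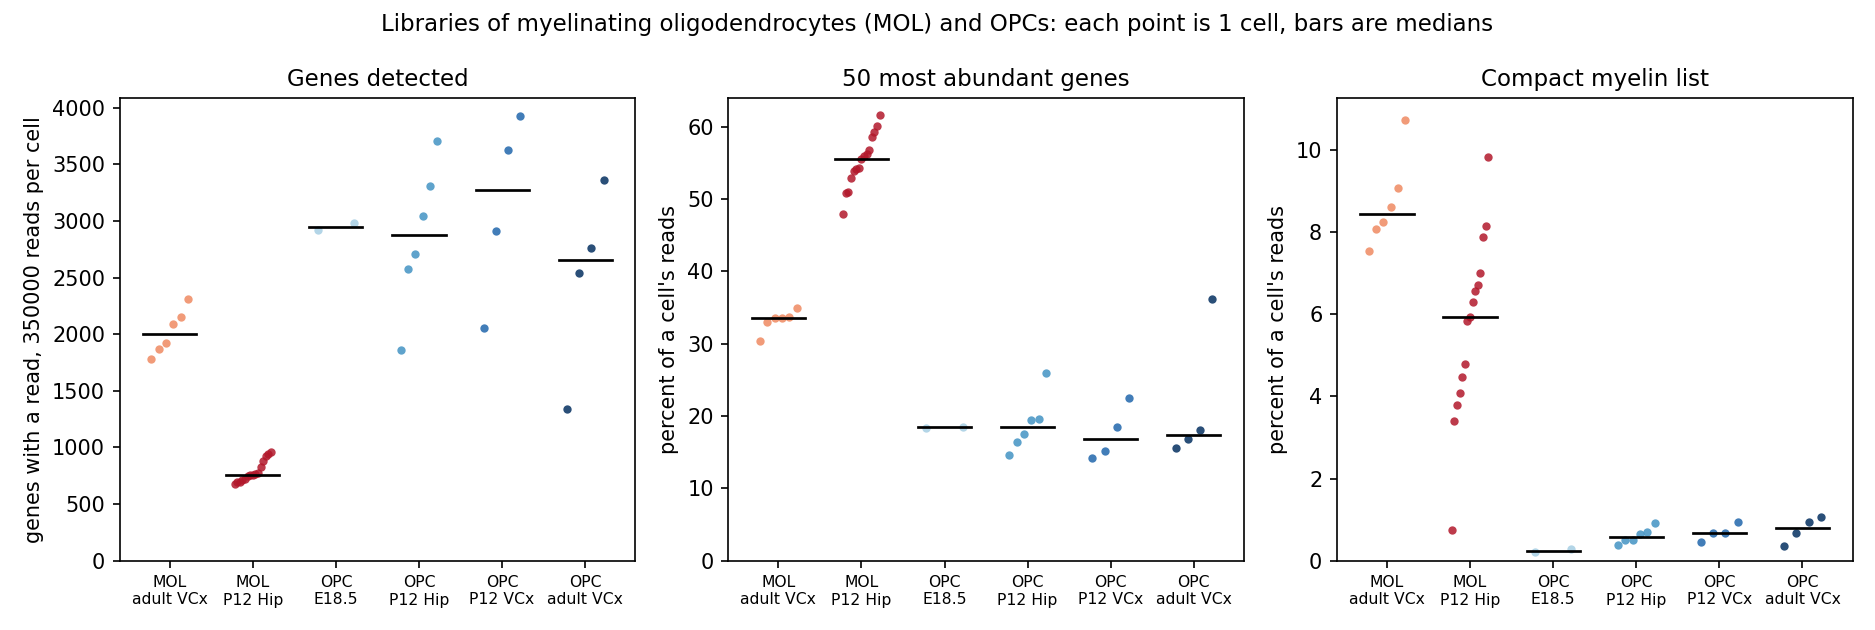
Each point is 1 cell; the x axis gives the 2 sets of myelinating oligodendrocytes (MOL) and the 4 sets of OPCs (Hip, hippocampus; VCx, visual cortex), and bars are medians. From left to right the y axes show genes with a read at 350000 reads per cell, the percent of a cell's reads in its 50 most abundant genes, and the percent in the compact myelin list. P12 MOLs show the fewest genes (680 to 955), and all MOLs but 1 lie above all OPCs in compact myelin.

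Marker lists of 8 classes were checked in each cell. These markers were counted without thinning, so depth differed between cells. At least 7 of the 12 myelinating oligodendrocyte markers were read in every myelinating oligodendrocyte, against at most 4 in an OPC. At most 1 OPC marker was read in a myelinating oligodendrocyte, against at least 5 in every OPC. Median summed marker levels, in CPM (reads scaled to a common library total), were 78868 in adult and 61489 in P12 myelinating oligodendrocytes for the myelinating markers, against medians of 97.8 to 1578 CPM in the OPC sets. For OPC markers the medians were 1.5 CPM in adult and 0 CPM in P12 myelinating oligodendrocytes, against 4175 to 10007 CPM in the OPC sets. Markers of other classes also differed between the types. Median summed astrocyte markers were 6.7 CPM in adult and 0.4 CPM in P12 myelinating oligodendrocytes, against 347 to 2279 CPM in the OPC sets, and neuronal markers were 0 CPM in both sets of myelinating oligodendrocytes, against 241 to 545 CPM in the OPC sets. Mural and fibroblast markers, a list that holds the OPC gene Cspg4, were 0 CPM in both sets of myelinating oligodendrocytes, against 233 to 1770 CPM in the OPC sets. Markers of newly formed oligodendrocytes, among them Gpr17 and Neu4, were 987 CPM in adult and 2.0 CPM in P12 myelinating oligodendrocytes, against 2346 to 2998 CPM in the OPC sets. Their part in the ratios below was not tested, beyond leaving out the mixed cells. A cell was called mixed where its summed markers of another class reached 25% of that class's own median, with the mural and newly formed oligodendrocyte lists left out of the rule. This held for 5 of the 37 cells. By the newly formed oligodendrocyte markers, OPC cell 67 of P12 hippocampus, cells 21 and 6 of P12 visual cortex and adult cell 51 stood at 32.8%, 36.5%, 26.5% and 124% of that class's median. P12 hippocampus myelinating oligodendrocyte cell 12 had 62.4% of the microglial level and only 9.26% of its own class's level. Among the OPCs, P12 visual cortex cell 48 had 55.2% of the microglial level, and P12 hippocampus cell 22 and adult cells 43 and 51 had 26.6%, 34.3% and 159% of the neuronal level. Adult OPC cell 51 was also the shallowest of the 37 libraries.

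Levels below are CPM, summed over the reads of all cells of a set. A log2 ratio is taken over all 21 against all 16 cells after 1 CPM is added to each level, and genes with at least 10 CPM in 1 type or both are called measured. A gene was called higher or lower when its ratio was at least 4-fold, in CPM and also relative to the median of all measured genes, and at least 2-fold whichever single cell was left out. A call was said to hold in both sets when the ratio was at least 2-fold the same way, by both measures, within adult visual cortex and within P12 hippocampus. A CPM level is a share of all reads. The median log2 ratio of the 8176 measured genes was -3.15 over all cells, -0.65 within adult visual cortex and -3.93 within P12 hippocampus. The cause of this shift was not tested. Of the measured genes 22.7% had no read in any myelinating oligodendrocyte, against 2.57% with none in any OPC. Scaling by TMM or by median of ratios shifts log2 ratios over all cells by 1.65 or 1.89 before 1 CPM is added. With 1 CPM added the shift is smaller, most so for genes with few or no reads in a type.

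Of the 8176 measured genes, 532 (6.51%) were called higher in myelinating oligodendrocytes and 1717 (21%) lower. Calls that held in both sets numbered 368 higher (4.5%) and 700 lower (8.56%). Under median-of-ratios scaling the calls were 1175 higher and 2175 lower. Within adult visual cortex alone they were 1069 higher and 949 lower, and without the 5 mixed cells 571 higher and 1709 lower. In 512 genes (6.26%) both sets of myelinating oligodendrocytes lay above all 4 OPC sets, and in 904 genes (11.1%) both lay below. The percentages are the background against which each gene list below is read. Counting intervals given below are exact Poisson intervals at 95%. Intervals and floors cover counting error only, and reads are not independent molecules.

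Several genes of the myelin sheath were high in both sets of myelinating oligodendrocytes and had no read in any OPC. Mog, a myelin surface glycoprotein on the outermost lamella, had 1573 CPM in adult and 1571 CPM in P12 myelinating oligodendrocytes, against 0 CPM in each of the 4 OPC sets. Over all cells Mog stood at 1572 CPM (counting interval 1562 to 1581) in myelinating oligodendrocytes, and 0 reads in OPCs allow up to 3 reads, or 0.146 CPM, so Mog was at least 10764-fold higher. Within the myelinating group the cells varied far more than counting error: Mog ranged from 60.4 to 3653 CPM (median 1521) in adult and from 0 to 4454 CPM (median 911) in P12 cells.

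Mobp, a basic protein of the major dense line, had 2930 CPM in adult and 794 CPM in P12 myelinating oligodendrocytes, against 0 CPM in each OPC set, which is at least 7532-fold higher. Opalin, a sialylated membrane protein of oligodendrocytes, had 806 CPM in adult and 251 CPM in P12 myelinating oligodendrocytes, against 0 CPM in each OPC set. Opalin was read in 4 of 6 adult and 5 of 15 P12 cells at 350000 reads, and its log2 ratio of 8.37 became 7.57 without P12 cell 6. The start regions of these 3 genes and of Pdgfra, the OPC gene at 0 in every myelinating oligodendrocyte, are shown as examples. Each is 300 bases, from 250 before to 50 after the gene's start, from RefSeq on GRCm38.p6, written 5′ to 3′ along the gene: Mog at chr17:37023349-37023648 on the minus strand, Mobp at chr9:120149492-120149791 on the plus strand, Opalin at chr19:41077064-41077363 on the minus strand and Pdgfra at chr5:75152001-75152300 on the plus strand.
Mog: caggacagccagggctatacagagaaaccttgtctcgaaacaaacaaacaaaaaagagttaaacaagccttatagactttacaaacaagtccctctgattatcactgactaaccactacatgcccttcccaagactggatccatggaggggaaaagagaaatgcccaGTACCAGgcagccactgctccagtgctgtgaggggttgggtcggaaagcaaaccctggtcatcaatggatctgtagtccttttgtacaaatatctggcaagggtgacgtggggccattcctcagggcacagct
Mobp: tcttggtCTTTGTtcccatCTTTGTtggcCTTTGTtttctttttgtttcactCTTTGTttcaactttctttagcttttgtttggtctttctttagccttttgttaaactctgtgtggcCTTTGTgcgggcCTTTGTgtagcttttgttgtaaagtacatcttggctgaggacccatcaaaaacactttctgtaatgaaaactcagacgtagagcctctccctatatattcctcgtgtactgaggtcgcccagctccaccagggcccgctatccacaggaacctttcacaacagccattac
Opalin: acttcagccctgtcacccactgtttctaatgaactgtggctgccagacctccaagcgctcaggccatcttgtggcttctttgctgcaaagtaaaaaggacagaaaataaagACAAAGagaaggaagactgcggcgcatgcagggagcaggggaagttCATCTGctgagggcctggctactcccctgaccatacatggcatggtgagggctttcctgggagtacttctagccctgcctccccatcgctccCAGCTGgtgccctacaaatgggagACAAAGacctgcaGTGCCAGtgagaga
Pdgfra: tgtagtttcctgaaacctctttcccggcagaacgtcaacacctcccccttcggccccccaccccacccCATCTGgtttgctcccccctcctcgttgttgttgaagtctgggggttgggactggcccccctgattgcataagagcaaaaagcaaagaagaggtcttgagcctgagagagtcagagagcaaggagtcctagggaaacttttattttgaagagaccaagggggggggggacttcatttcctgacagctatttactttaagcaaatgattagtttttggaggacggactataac
Capitals mark matches, on either strand, to 3 short motifs of factors known in the lineage: CTGGCAC or CTGGTAC for MYRF, ACAAAG or ACAATG for SOX factors, and CAGCTG or CATCTG for the E-boxes that OLIG factors bind. Mog held 1 MYRF match on the reverse strand, Mobp held 6 SOX matches on the reverse strand, Opalin held 1 MYRF, 2 SOX and 2 E-box matches, and Pdgfra held 1 E-box match. No matches overlapped. Among 32851 start regions of the same length, 7.10% held the MYRF motif, 28.6% a SOX motif and 30.6% an E-box, so a single match is a description of these letters and not a binding site.

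Of the 12 measured compact myelin genes, 6 were called higher in both sets and 0 lower, with a median log2 ratio of 2.87. Mal, a raft protein that sorts myelin membrane, had 4833 CPM in adult and 4007 CPM in P12 myelinating oligodendrocytes, against 0.18 CPM in adult OPCs and 0 CPM in the other 3 OPC sets. Mal was read in every myelinating oligodendrocyte and, with 1 read, in 1 OPC, and the cells of the groups did not overlap.

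Mbp, which draws the inner membrane faces together, had 14371 CPM in adult and 1858 CPM in P12 myelinating oligodendrocytes, against 0, 0.14, 8.46 and 124 CPM in OPCs of E18.5, P12 hippocampus, P12 visual cortex and adults. Nearly all OPC reads of Mbp came from adult cell 62, and the log2 ratio of 6.63 became 10.11 without it. Cldn11, the tight junction protein of the sheath, and Tspan2, a tetraspanin, likewise had 1 OPC that carried most reads: their log2 ratios of 4.88 and 4.70 became 9.78 without P12 hippocampus OPC cell 44 and 8.96 without adult OPC cell 43.

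The other 6 measured members were not called. Cd9, a tetraspanin, had 786 CPM in adult and 564 CPM in P12 myelinating oligodendrocytes, against 86.1, 2359, 1485 and 402 CPM in OPCs of E18.5, P12 hippocampus, P12 visual cortex and adults. Pllp, plasmolipin, had 600 CPM in adult and 70.7 CPM in P12 myelinating oligodendrocytes, against 0.36, 486, 575 and 1578 CPM in the same OPC sets. Gpm6b, a membrane glycoprotein, had 3773 CPM in adult and 685 CPM in P12 myelinating oligodendrocytes, against 1141 to 2116 CPM in the OPC sets. For these 3 genes the sets of the 2 types overlapped. Reads of all 12 compact myelin genes made up 7.56% to 10.8% of the reads of an adult (median 8.44%) and 0.737% to 9.83% of those of a P12 myelinating oligodendrocyte (median 5.94%), against 0.199% to 1.07% of those of an OPC (median 0.660%). The lowest of these myelinating oligodendrocytes was the mixed cell 12, and the list's median log2 ratio was 4.14 without the mixed cells. In the 5 cells labelled Newly formed Oligodendrocyte the same share of reads was 2.62% to 6.66% (median 5.98%), so a high share was not particular to the myelinating cells.

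Genes of the inner tongue, paranode and myelin surface showed the same direction: 9 of 14 measured members were called higher in both sets and 0 lower. The list's median log2 ratio was 4.40, and 4.97 when genes without a read in 1 type are set at their floor of 3 reads. It was 5.07 without adult OPC cell 43. Mag, the adhesion protein that faces the axon, had 2597 CPM in adult and 751 CPM in P12 myelinating oligodendrocytes, against 0 CPM in each OPC set, at least 6956-fold higher. Ermn, an actin-binding protein of the outer tongue, had 3381 CPM in adult and 1020 CPM in P12 myelinating oligodendrocytes, against 1.01 CPM in P12 visual cortex OPCs and 0 CPM in the other 3 OPC sets. Both genes separated all sets of the 2 types.

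Cnp, a phosphodiesterase that keeps cytoplasmic channels of myelin open, was read in OPCs as well. It had 10209 CPM in adult and 10888 CPM in P12 myelinating oligodendrocytes, against 112, 482, 373 and 348 CPM in OPCs of E18.5, P12 hippocampus, P12 visual cortex and adults, a log2 ratio of 4.87 (4.73 to 5.18 with each cell left out). Lpar1, a receptor for lysophosphatidic acid, had 1005 CPM in adult and 7945 CPM in P12 myelinating oligodendrocytes, against 0.36 CPM in E18.5 OPCs and 0 CPM in the other OPC sets. Lpar1 was thus among the sheath genes that stood higher in P12 than in adult myelinating oligodendrocytes. Omg, a surface inhibitor of neurite growth, ran the other way without a call: it had 322 CPM in adult and 465 CPM in P12 myelinating oligodendrocytes, against 904 to 1635 CPM in the OPC sets, and its log2 ratio of -1.44 became -2.63 without P12 myelinating oligodendrocyte cell 13.

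**Figure D2:**
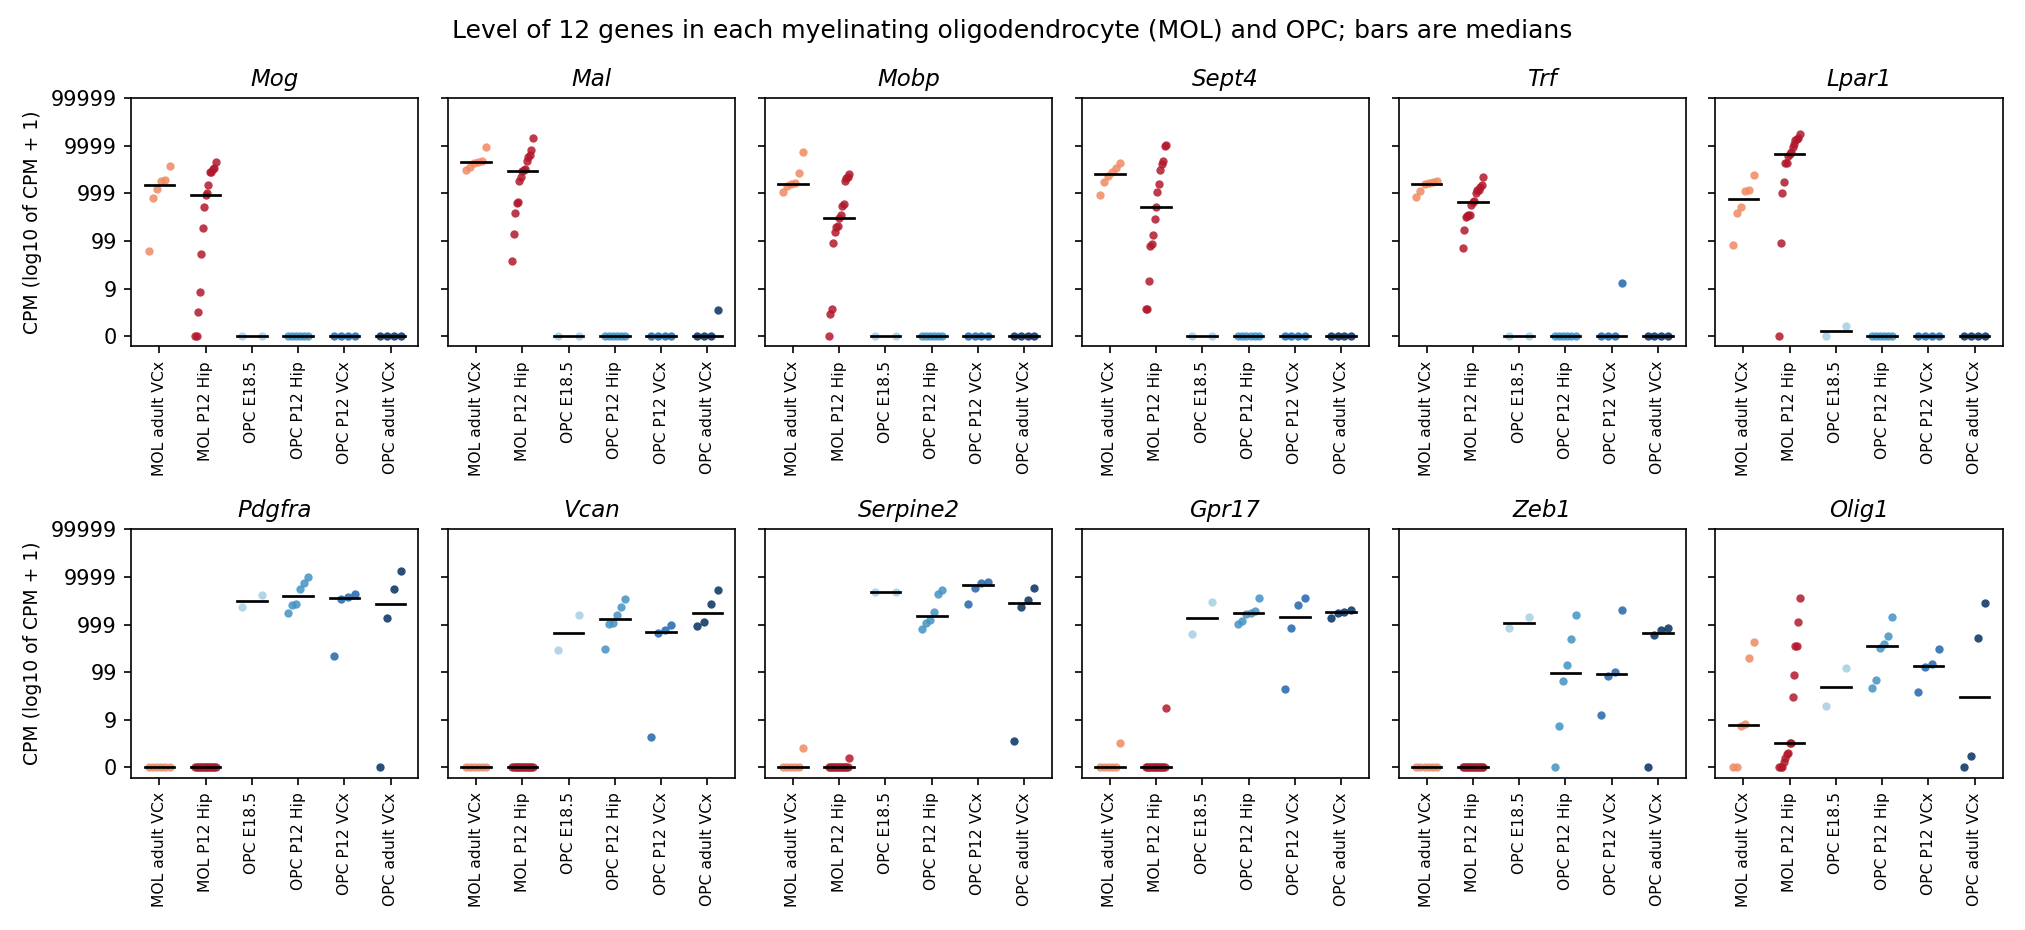
Each point is 1 cell, the y axis is CPM in that cell on a log10 scale of CPM + 1, columns are the 2 sets of myelinating oligodendrocytes (MOL) and the 4 sets of OPCs (Hip, hippocampus; VCx, visual cortex), and bars are medians. Mog, Mobp and Sept4 are at 0 in all 16 OPCs, and Pdgfra, Vcan and Zeb1 are at 0 in all 21 MOLs, while the cells of the types overlap in Olig1.

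Of 20 measured genes of sphingolipid and fatty acid synthesis, 8 were called higher in both sets and 0 lower (median log2 ratio 1.60, and 2.25 without P12 visual cortex OPC cell 6). Ugt8a, which makes galactosylceramide, had 2623 CPM in adult and 2756 CPM in P12 myelinating oligodendrocytes, against 0, 502, 442 and 187 CPM in OPCs of E18.5, P12 hippocampus, P12 visual cortex and adults (log2 ratio 3.03, 2.88 to 3.46 with each cell left out). Enpp2, the lysophospholipase autotaxin, had 9250 CPM in adult and 4652 CPM in P12 myelinating oligodendrocytes, against 760 to 1386 CPM in the OPC sets. Scd2, a fatty acid desaturase, had 6409 CPM in adult and 2896 CPM in P12 myelinating oligodendrocytes, against 452 to 1357 CPM in the OPC sets. These enzymes were present in both types and higher in the myelinating cells.

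Aspa, which frees acetate from N-acetylaspartate, and Scd1, the related desaturase, were close to absent from OPCs. Aspa had 1032 CPM in adult and 128 CPM in P12 myelinating oligodendrocytes, against 0 CPM in each OPC set, and its log2 ratio of 8.01 became 7.32 without P12 cell 10 and 7.26 without adult cell 2. Scd1 had 607 CPM in adult and 683 CPM in P12 myelinating oligodendrocytes, against at most 1.61 CPM in an OPC set, but in P12 it rested on few cells: its log2 ratio of 8.87 became 7.41 without P12 cell 10. Abca2, a lipid transporter of the endosome, had 662 CPM in adult and 1698 CPM in P12 myelinating oligodendrocytes, against at most 0.36 CPM in an OPC set.

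Cholesterol genes varied with the set and the scale. Of 19 measured genes of sterol synthesis, 4 were called higher in both sets and 1 lower. The list's median log2 ratio was 1.01 over all cells, 3.52 within adult visual cortex and -2.54 within P12 hippocampus in CPM, and 4.16, 4.17 and 1.39 relative to the median of all measured genes. In CPM it became -0.52 without P12 myelinating oligodendrocyte cell 7. It was between 0.33 and 0.40 without adult OPC cell 5, either E18.5 OPC, P12 hippocampus OPC cell 67 or P12 visual cortex OPC cell 48. Insig1, which retains the sterol sensor in the endoplasmic reticulum, had 194 CPM in adult and 492 CPM in P12 myelinating oligodendrocytes, against 59.4 to 175 CPM in the OPC sets (log2 ratio 2.24, 2.11 to 2.49 with each cell left out). Dhcr7, the last reductase of the pathway, was the member called lower: it had no read in myelinating oligodendrocytes of either set, against 5.74, 132, 110 and 18 CPM in OPCs of E18.5, P12 hippocampus, P12 visual cortex and adults, and its log2 ratio of -6.31 became -5.21 without the mixed P12 hippocampus OPC cell 22. Hmgcs1, an early enzyme of the pathway, was not called.

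The cytoskeleton list of mature cells had 14 of 31 measured members called higher in both sets and 2 lower (median log2 ratio 2.15). Sept4, a septin of the filaments that scaffold myelin, had 2435 CPM in adult and 1827 CPM in P12 myelinating oligodendrocytes, against 0 CPM in each OPC set, at least 13112-fold higher. Sept4 was read in all 21 myelinating oligodendrocytes and in 0 of 16 OPCs. Tppp, a tubulin-polymerising protein at Golgi outposts, had 1403 CPM in adult and 1626 CPM in P12 myelinating oligodendrocytes, against 0 CPM in each OPC set, and its log2 ratio of 10.64 became 9.87 without P12 cell 15. Both genes separated the sets.

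Other members were higher but not exclusive to the myelinating cells. Cryab, a small heat shock protein, had 1928 CPM in adult and 1497 CPM in P12 myelinating oligodendrocytes, against 0, 51.1, 24.6 and 35.6 CPM in OPCs of E18.5, P12 hippocampus, P12 visual cortex and adults, and its log2 ratio of 5.50 became 6.47 without P12 hippocampus OPC cell 18. Tubb4a, a beta-tubulin of mature oligodendrocytes, had 6458 CPM in adult and 922 CPM in P12 myelinating oligodendrocytes, against 735, 57.9, 529 and 55.2 CPM in the same OPC sets, and its log2 ratio of 2.70 became 3.29 without E18.5 OPC cell 20. The 2 members called lower were Tubb2a and Tubb2b, beta-tubulins of growing processes. Neither Tubb2a nor Tubb2b exceeded 0.11 CPM in a set of myelinating oligodendrocytes, against 8.55 to 1348 CPM for Tubb2a and 1.61 to 164 CPM for Tubb2b in the OPC sets. Their log2 ratios of -8.54 and -5.95 became -7.66 without E18.5 OPC cell 24 and -3.59 without P12 hippocampus OPC cell 29. The 2 tubulins are near-identical copies, so the split of reads between them is uncertain.

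In the progenitor cytoskeleton list, 7 of 19 measured members were called lower in both sets and 1 higher (median log2 ratio -4.77, and -5.15 with zero groups at their floor). The median was -4.16 without E18.5 OPC cell 20 and -4.18 without P12 hippocampus OPC cell 44. Marcks, a membrane-bound actin regulator, had 0.22 CPM in adult and 0.18 CPM in P12 myelinating oligodendrocytes, against 4343, 3256, 2916 and 2065 CPM in OPCs of E18.5, P12 hippocampus, P12 visual cortex and adults. Every OPC exceeded every myelinating oligodendrocyte in Marcks. Dpysl3, Dcx, Gap43 and Fabp7, proteins of growing processes and of progenitors, had 0 reads in all 21 myelinating oligodendrocytes. Stmn1, a microtubule destabiliser, was the member called higher, with 1349 CPM in adult and 983 CPM in P12 myelinating oligodendrocytes against 0.40 to 404 CPM in the OPC sets, and its log2 ratio of 2.93 became 3.55 without E18.5 OPC cell 20.

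Of 25 measured genes of iron handling, acid-base balance and metabolism, 7 were called higher in both sets and 2 lower, beside 4.5% and 8.56% of all measured genes. The lower calls were thus near that background. The median log2 ratio was 0.46 over all cells, 2.11 within adult visual cortex and -1.68 within P12 hippocampus. Trf, the iron carrier transferrin, had 1454 CPM in adult and 711 CPM in P12 myelinating oligodendrocytes, against 2.82 CPM in P12 visual cortex OPCs and 0 CPM in the other 3 OPC sets. All of these OPC reads came from the mixed cell 48, and the log2 ratio of 8.93 became 9.68 without it. Car2, carbonic anhydrase 2, had 12730 CPM in adult and 2196 CPM in P12 myelinating oligodendrocytes, against 64.5 CPM in P12 visual cortex OPCs and at most 0.14 CPM in the other sets, and its log2 ratio of 7.8 became 11.78 without P12 visual cortex OPC cell 21. Qdpr, which regenerates tetrahydrobiopterin, had 2390 CPM in adult and 1056 CPM in P12 myelinating oligodendrocytes, against at most 5.71 CPM in an OPC set, and its log2 ratio of 8.26 became 9.19 without P12 hippocampus OPC cell 18.

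Fth1, the ferritin heavy chain, differed by set. It had 11517 CPM in adult and 362 CPM in P12 myelinating oligodendrocytes, against 269 to 477 CPM in the OPC sets, so the call over all cells did not hold within P12 hippocampus. Ldha, the lactate dehydrogenase A subunit, was called lower in both sets, with 0.22 CPM in adult and 0 CPM in P12 myelinating oligodendrocytes, against 15.1, 285, 921 and 485 CPM in OPCs of E18.5, P12 hippocampus, P12 visual cortex and adults.

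Most transcription factors of the lineage were not called in both sets. Of 15 measured lineage factors, 3 were called higher in both sets and 1 lower, beside 4.5% and 8.56% of all measured genes. The lower call was thus near that background. The median log2 ratio was 1.31 (0.49 and 0.59 without P12 myelinating oligodendrocyte cells 1 and 14, and 2.02 without adult OPC cell 62). Olig1, a factor of the whole lineage, had 93.8 CPM in adult and 460 CPM in P12 myelinating oligodendrocytes, against 66.4, 477, 157 and 1121 CPM in OPCs of E18.5, P12 hippocampus, P12 visual cortex and adults. Olig2 had 85.4 CPM in adult and 449 CPM in P12 myelinating oligodendrocytes, against 7.18, 29.5, 3.22 and 265 CPM in the same OPC sets. Its log2 ratio was 2.22 over all cells and -1.62 within adult visual cortex, and it became 4.33 without adult OPC cell 5 and 1.55 without P12 myelinating oligodendrocyte cell 5. Sets of the 2 types overlapped for both factors.

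Sox10, which activates myelin genes together with MYRF, had 190 CPM in adult and 0.13 CPM in P12 myelinating oligodendrocytes, against 112 to 279 CPM in the OPC sets, and was not called. Myrf, the myelin regulatory factor, had 129 CPM in adult and 96.2 CPM in P12 myelinating oligodendrocytes, against 45.7 CPM in P12 visual cortex OPCs and 0 CPM in the other 3 OPC sets. Both sets of myelinating oligodendrocytes lay above all OPC sets for Myrf, yet single cells decided its ratio: the log2 ratio of 3.08 became 1.00 without P12 myelinating oligodendrocyte cell 7 and 6.67 without P12 visual cortex OPC cell 6, so Myrf missed the call. The called factors were Nkx6-2, St18 and Carhsp1 on the higher side and Myt1 on the lower side. Myt1, a zinc finger factor of progenitors, had 0 CPM in both sets of myelinating oligodendrocytes, against 152 to 508 CPM in the OPC sets, and its log2 ratio of -8.19 became -7.42 without adult OPC cell 5. Of these, Nkx6-2 rested mainly on P12 cell 11, without which its log2 ratio of 5.01 became 1.90.

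Among 15 measured progenitor factors, 4 were called lower in both sets and 0 higher (median log2 ratio -5.38, and -5.70 with zero groups at their floor). The median was -4.55 without adult OPC cell 5 and -4.80 without E18.5 OPC cell 20. Zeb1, a zinc finger repressor, had 0 CPM in both sets of myelinating oligodendrocytes, against 1117, 312, 526 and 681 CPM in OPCs of E18.5, P12 hippocampus, P12 visual cortex and adults. Sox6, which holds back maturation of OPCs, had 0 CPM in both sets of myelinating oligodendrocytes, against 115, 810, 400 and 192 CPM in the same OPC sets. Sox6 was above 0 in every OPC, and its log2 ratio of -8.81 became -7.86 without P12 hippocampus OPC cell 57. Nfia, a factor of early gliogenesis, did not separate the types: it had 759 CPM in adult and 1148 CPM in P12 myelinating oligodendrocytes, against 576 to 1735 CPM in the OPC sets.

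OPC markers were lower almost throughout. Of 23 measured members, 14 were called lower in both sets and 0 higher, with a median log2 ratio of -6.18 (-10.04 with zero groups at their floor). Pdgfra, the PDGF receptor that drives OPC division, had 0 reads in all 21 myelinating oligodendrocytes, against 3322, 5492, 3015 and 6591 CPM in OPCs of E18.5, P12 hippocampus, P12 visual cortex and adults. Over all cells Pdgfra stood at 0 CPM in myelinating oligodendrocytes, which allows up to 0.0469 CPM, against 4900 CPM (counting interval 4869 to 4930) in OPCs, so it was at least 104367-fold lower. The 1 OPC without a Pdgfra read was the mixed adult cell 51. Cspg4, the NG2 proteoglycan, had 0 CPM in both sets of myelinating oligodendrocytes, against 235, 1358, 545 and 1143 CPM in the same OPC sets, at least 20243-fold lower.

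Gpr17, a receptor of late OPCs and premyelinating cells, had 0.33 CPM in adult and 1.41 CPM in P12 myelinating oligodendrocytes, against 1744, 1844, 1774 and 1701 CPM in OPCs of E18.5, P12 hippocampus, P12 visual cortex and adults. The 4 OPC sets lay within a narrow range, and the log2 ratio of -9.62 became -10.72 without P12 myelinating oligodendrocyte cell 1. Ptprz1, a receptor phosphatase, was not called. It had 0.11 CPM in adult and 432 CPM in P12 myelinating oligodendrocytes, against 2105 to 5522 CPM in the OPC sets, and nearly all of its P12 reads came from cell 15, without which the log2 ratio of -3.20 became -7.49.

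Chst2, a sulphotransferase, was the exception among the markers. It had 0 CPM in adult and 1285 CPM in P12 myelinating oligodendrocytes, against 373, 550, 0 and 47.2 CPM in OPCs of E18.5, P12 hippocampus, P12 visual cortex and adults. Its log2 ratio was 2.10 over all cells (1.78 to 2.69 with each cell left out) and -5.59 within adult visual cortex. Tmem100, a small membrane protein, had 0 reads in all myelinating oligodendrocytes and at least 3.84 CPM in every OPC.

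The extracellular matrix list had 13 of 25 measured members called lower in both sets and 2 higher (median log2 ratio -6.55, and -8.71 with zero groups at their floor). The median was -7.18 without adult myelinating oligodendrocyte cell 14 and -5.92 without adult OPC cell 5. Vcan, the large chondroitin sulphate proteoglycan versican, had 0 CPM in both sets of myelinating oligodendrocytes, against 973, 1606, 606 and 1871 CPM in OPCs of E18.5, P12 hippocampus, P12 visual cortex and adults. Every OPC carried Vcan reads. Bcan, brevican, had at most 0.018 CPM in a set of myelinating oligodendrocytes, against 1.44, 1612, 589 and 1033 CPM in the same OPC sets, so it was scarce in the E18.5 OPCs. Ncan, neurocan, had 0 CPM in adult and 0.091 CPM in P12 myelinating oligodendrocytes, against 2588, 956, 945 and 1050 CPM, and was highest in the E18.5 OPCs. Tnr, the glycoprotein tenascin-R that links these proteoglycans, was called lower too, with a log2 ratio of -9.07 (-9.19 to -8.70 with each cell left out).

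The members called higher were Hapln2 and Adamts4. Hapln2, a link protein at nodes of Ranvier, had 64 CPM in adult and 6.05 CPM in P12 myelinating oligodendrocytes, against 0 CPM in each OPC set. Adamts4, a protease that cleaves such proteoglycans, had 15.4 CPM in adult and 746 CPM in P12 myelinating oligodendrocytes, against 0 CPM in each OPC set, and its log2 ratio of 9.33 became 8.27 without P12 cell 8.

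Receptors for growth factors differed gene by gene: of 24 measured members of growth factor and Notch signalling, 2 were called higher in both sets and 5 lower (median log2 ratio -5.34). Erbb3, a neuregulin receptor, had 498 CPM in adult and 565 CPM in P12 myelinating oligodendrocytes, against 1.21 CPM in P12 visual cortex OPCs and 0 CPM in the other 3 sets, and its log2 ratio of 8.75 became 8.10 without P12 cell 14. The FGF receptors took opposite sides. Fgfr2 had 311 CPM in adult and 166 CPM in P12 myelinating oligodendrocytes, against 5.38 CPM in E18.5 OPCs and 0 CPM in the other sets. Fgfr1 had 0.11 CPM in adult and 0 CPM in P12 myelinating oligodendrocytes, against 71.4, 208, 28.6 and 215 CPM in OPCs of E18.5, P12 hippocampus, P12 visual cortex and adults. The Fgfr2 log2 ratio of 6.76 became 7.55 without E18.5 OPC cell 24, and that of Fgfr1 was -7.20 (-7.35 to -6.62 with each cell left out).

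Ednrb, the endothelin receptor B of OPCs, had 0 CPM in adult and 13 CPM in P12 myelinating oligodendrocytes, against 1280, 3085, 7343 and 3032 CPM in the same OPC sets, and its log2 ratio of -8.32 became -11.91 without P12 myelinating oligodendrocyte cell 1. Spry4, a feedback inhibitor of receptor tyrosine kinases, had 0 CPM in both sets of myelinating oligodendrocytes, against 443 to 1276 CPM in the OPC sets. Notch2 ran in opposite directions: it had 0.33 CPM in adult and 543 CPM in P12 myelinating oligodendrocytes, against 0, 3.48, 35.5 and 27.4 CPM in OPCs of E18.5, P12 hippocampus, P12 visual cortex and adults. Its log2 ratio was 4.67 over all cells, 3.64 without P12 cell 10, and -4.42 within adult visual cortex.

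G protein-coupled receptors were also divided, with 3 of 15 measured members called higher in both sets and 4 lower. Their median log2 ratio was -5.68 (-6.41 with zero groups at their floor), and -4.81 or -4.38 without P12 visual cortex OPC cell 48 or 57. Within adult visual cortex alone it was -0.80, or -0.15 relative to the median of all measured genes. Gpr37 and Gpr37l1, related orphan receptors for which prosaposin has been proposed as a ligand, were on opposite sides. Gpr37 had 1760 CPM in adult and 271 CPM in P12 myelinating oligodendrocytes, against 0 CPM in each OPC set. Gpr37l1 had 0 CPM in both sets of myelinating oligodendrocytes, against 0, 607, 624 and 425 CPM in OPCs of E18.5, P12 hippocampus, P12 visual cortex and adults, so it had no read in the 2 E18.5 OPCs either.

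Of 15 measured subunits of glutamate and GABA receptors, 3 were called lower in both sets and 0 higher (median log2 ratio -6.05, and -9.52 with zero groups at their floor). Gria2, the AMPA receptor subunit that blocks calcium entry, had 0.66 CPM in adult and 0 CPM in P12 myelinating oligodendrocytes, against 1141, 1506, 1183 and 1386 CPM in OPCs of E18.5, P12 hippocampus, P12 visual cortex and adults. The log2 ratio of Gria2 was -10.27 (-10.37 to -10.01 with each cell left out). Of 26 measured ion channels and transporters, 4 were called higher in both sets and 7 lower (median -4.67, and -6.54 with zero groups at their floor). Kcna1, a potassium channel subunit, had 1582 CPM in adult and 621 CPM in P12 myelinating oligodendrocytes, against 13.6, 0.14, 176 and 6.77 CPM in the same OPC sets, and its log2 ratio of 4.01 became 3.26 without P12 myelinating oligodendrocyte cell 15 and 7.23 without P12 visual cortex OPC cell 6. Slc24a2, a sodium, calcium and potassium exchanger, had 626 CPM in adult and 326 CPM in P12 myelinating oligodendrocytes, against 0 CPM in each OPC set, and its log2 ratio of 8.53 became 7.91 without P12 cell 5. Scn3a, a sodium channel subunit of excitable cells, had 0 CPM in both sets of myelinating oligodendrocytes, against 164 to 476 CPM in the OPC sets.

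Among cell cycle genes, 5 of 22 measured members were called lower in both sets and 0 higher, beside 8.56% of all measured genes called lower. The median log2 ratio was -5.90 (-8.996 with zero groups at their floor), -6.53 without adult myelinating oligodendrocyte cell 2 and -5.24 without P12 hippocampus OPC cell 22. Ccnd1 and Cdk4, the cyclin D1 and its kinase that start the cycle, had 0 CPM in both sets of myelinating oligodendrocytes. Against this, Ccnd1 had 3.95, 549, 485 and 389 CPM and Cdk4 had 306, 422, 185 and 388 CPM in OPCs of E18.5, P12 hippocampus, P12 visual cortex and adults. Genes of DNA replication rested on fewer cells: Mcm2, a helicase subunit, had 778 CPM in P12 hippocampus OPCs, and its log2 ratio of -7.99 became -4.60 without the mixed OPC cell 22. Cdkn1b, the kinase inhibitor p27 linked to exit from the cycle, had 54.4 CPM in adult and 71.4 CPM in P12 myelinating oligodendrocytes, against 4.31 to 52.6 CPM in the OPC sets, so both sets of myelinating oligodendrocytes lay above all OPC sets, but it was not called (log2 ratio 1.47). Of the 7 measured genes of cell cycle exit, 0 were called in both sets.

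The premyelinating stage list had 2 of 14 measured members called higher in both sets and 5 lower (median log2 ratio -4.16, -5.45 without adult myelinating oligodendrocyte cell 4 and -3.40 without adult OPC cell 51). Enpp6, a choline phosphodiesterase of newly formed oligodendrocytes, had 488 CPM in adult and 434 CPM in P12 myelinating oligodendrocytes, against 0.81 CPM in P12 visual cortex OPCs and 0 CPM in the other 3 OPC sets. In the 5 cells labelled Newly formed Oligodendrocyte, Enpp6 stood at 5960 CPM, Gpr17 at 5599 CPM and Mbp at 16891 CPM, while Pdgfra was at 0.71 CPM and Mog at 135 CPM. Bmp4, a secreted inhibitor of maturation, rested on a single cell: it had no read in myelinating oligodendrocytes of either set, against 0, 0.84, 2.82 and 223 CPM in the OPC sets, and its log2 ratio of -5.98 became -0.99 without the mixed adult OPC cell 51.

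Genes of late oligodendrocyte subtypes were called higher in both sets in 10 of 27 measured members and lower in 0, with a median log2 ratio of 1.96 over all cells (3.51 without E18.5 OPC cell 24) and 6.74 within adult visual cortex. Of 16 measured immediate early and stress genes 1 was called higher in both sets, the heat shock gene Hspa1a, whose log2 ratio of 4.49 became 2.41 without the mixed P12 myelinating oligodendrocyte cell 12. Of 11 measured MHC class I and immune genes 1, Cd59a, an inhibitor of complement, was called higher, and the median of -3.95 became -2.45 and -1.41 without adult OPC cells 43 and 62.

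Ranking all genes that held in both sets by their ratio, with at least 100 CPM in the higher type and a read in 50% of its cells, named 20 genes in each direction from 78 and 249 candidates. On the higher side, beside sheath, lipid and metabolic genes already given, were Fnbp1 and Gas7, which bend membranes and bind actin, and Ndrg1, Tmem88b and Epb41l3. Fnbp1 had 3318 CPM in adult and 10481 CPM in P12 myelinating oligodendrocytes, against 5.99 CPM in P12 hippocampus OPCs and 0 CPM in the other 3 sets, and its log2 ratio of 11.58 became 12.20 without the mixed OPC cell 22. Gas7 had 617 CPM in adult and 4614 CPM in P12 myelinating oligodendrocytes, against 1.78 CPM in adult OPCs and 0 CPM in the other sets. Epb41l3, the band 4.1 protein known from the axonal side of paranodes, had 1753 CPM in adult and 6558 CPM in P12 myelinating oligodendrocytes, against 0.36, 0, 56.4 and 0 CPM in OPCs of E18.5, P12 hippocampus, P12 visual cortex and adults. Its log2 ratio of 8.64 became 12.13 without P12 visual cortex OPC cell 57.

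On the lower side, Serpine2 led with Pdgfra and Marcks. Serpine2, the protease inhibitor nexin-1, had 0.22 CPM in adult and 0.018 CPM in P12 myelinating oligodendrocytes, against 4909, 2617, 6035 and 3540 CPM in OPCs of E18.5, P12 hippocampus, P12 visual cortex and adults. Every OPC exceeded every myelinating oligodendrocyte in Serpine2. Gpm6a, a neurite membrane glycoprotein, had 3.93 CPM in adult and 0 CPM in P12 myelinating oligodendrocytes, against 2338 to 3396 CPM in the OPC sets, and its log2 ratio of -10.71 became -11.33 without adult myelinating oligodendrocyte cell 41. Cpe, the carboxypeptidase that matures neuropeptides, had 0.11 CPM in adult and 0 CPM in P12 myelinating oligodendrocytes, against 1232 to 1970 CPM in the OPC sets. The rest of that ranking comprised Tspan6, Ctnnd2, Cspg5, Mmp16, Maml2, Brinp3 and Copg1 beside genes described above, none of which exceeded 1 CPM in a set of myelinating oligodendrocytes.

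**Figure D3:**
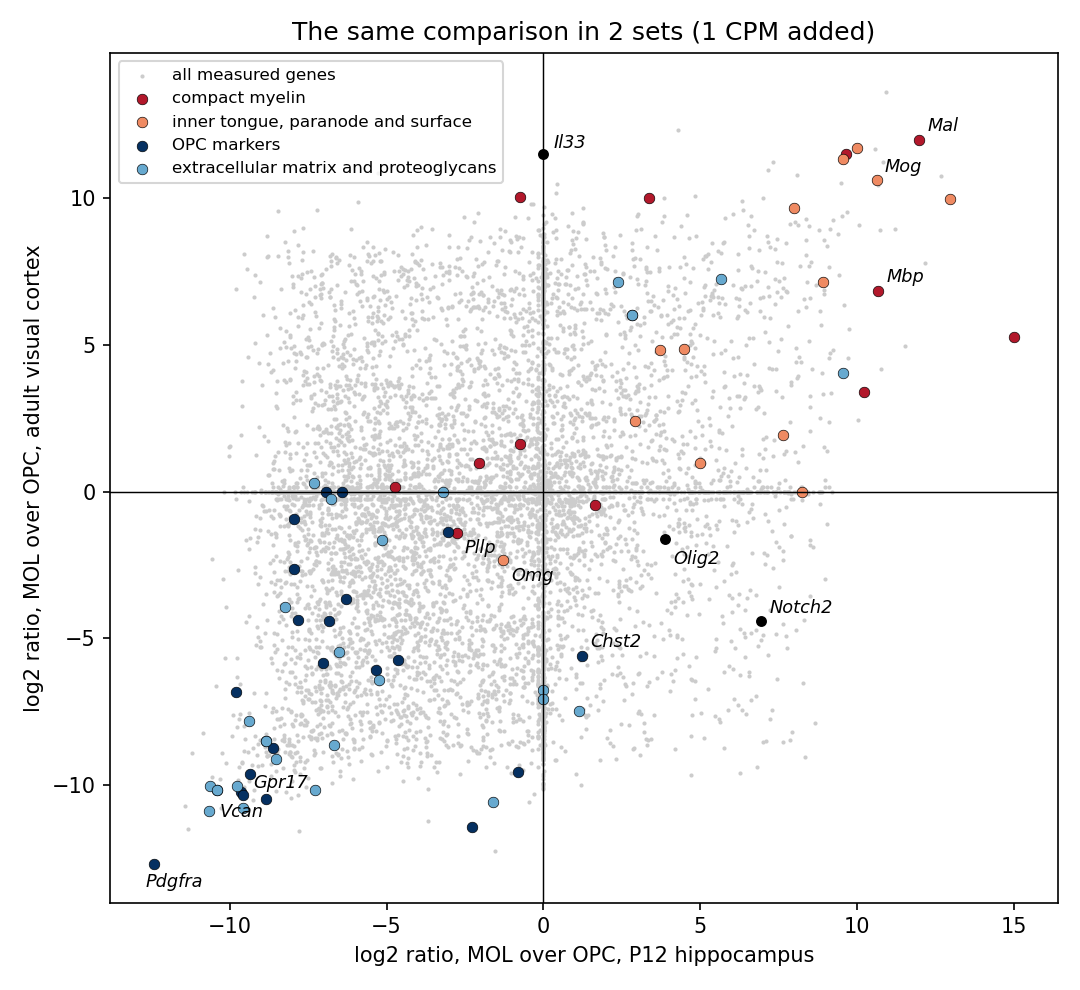
Each point is 1 measured gene; the x axis is its log2 ratio, MOL over OPC, within P12 hippocampus (15 and 6 cells) and the y axis the same ratio within adult visual cortex (6 and 4 cells), with 1 CPM added. Coloured points are members of 4 gene lists; Mal and Mog lie high in both sets, Pdgfra and Vcan low in both, and Notch2 on opposite sides (6.92 and -4.42).

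The comparison was not the same gene by gene in the 2 sets that hold both types. Of the 8176 measured genes, 681 were at least 2-fold higher in myelinating oligodendrocytes in both sets and 1940 at least 2-fold lower in both. Another 1081 were at least 2-fold higher within adult visual cortex and 2-fold lower within P12 hippocampus, and 403 were the reverse. These counts are in CPM and were not taken relative to each set's median log2 ratio. Those medians were -0.65 within adult visual cortex and -3.93 within P12 hippocampus, and their part in the counts was not tested. Chst2 of the OPC list changed side, with log2 ratios of -5.59 within adult visual cortex and 1.22 within P12 hippocampus, and the compact myelin gene Pllp was below 0 in both, at -1.39 and -2.76. The medians of the 2 marker lists had the same sign in both sets: the median log2 ratio of the 12 myelinating markers was 10.02 within adult visual cortex and 9.23 within P12 hippocampus, and that of the OPC markers was -8.62 within adult visual cortex (10 measured) and -8.63 within P12 hippocampus (11 measured). The median log2 ratios of the cholesterol list and of the iron and metabolism list, given above, were above 0 within adult visual cortex and below 0 within P12 hippocampus in CPM. Relative to the median of all measured genes in each set they were above 0 in both, at 4.17 and 1.39 for cholesterol and 2.76 and 2.25 for iron and metabolism. By the same measure the growth factor list stood at -5.11 within adult visual cortex and -0.17 within P12 hippocampus, and the progenitor cytoskeleton list at -5.72 and -0.05. The low number of genes read in P12 myelinating oligodendrocytes and their separate run of cell IDs go with the P12 values, and their part in these differences was not tested.

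**Figure D4:**
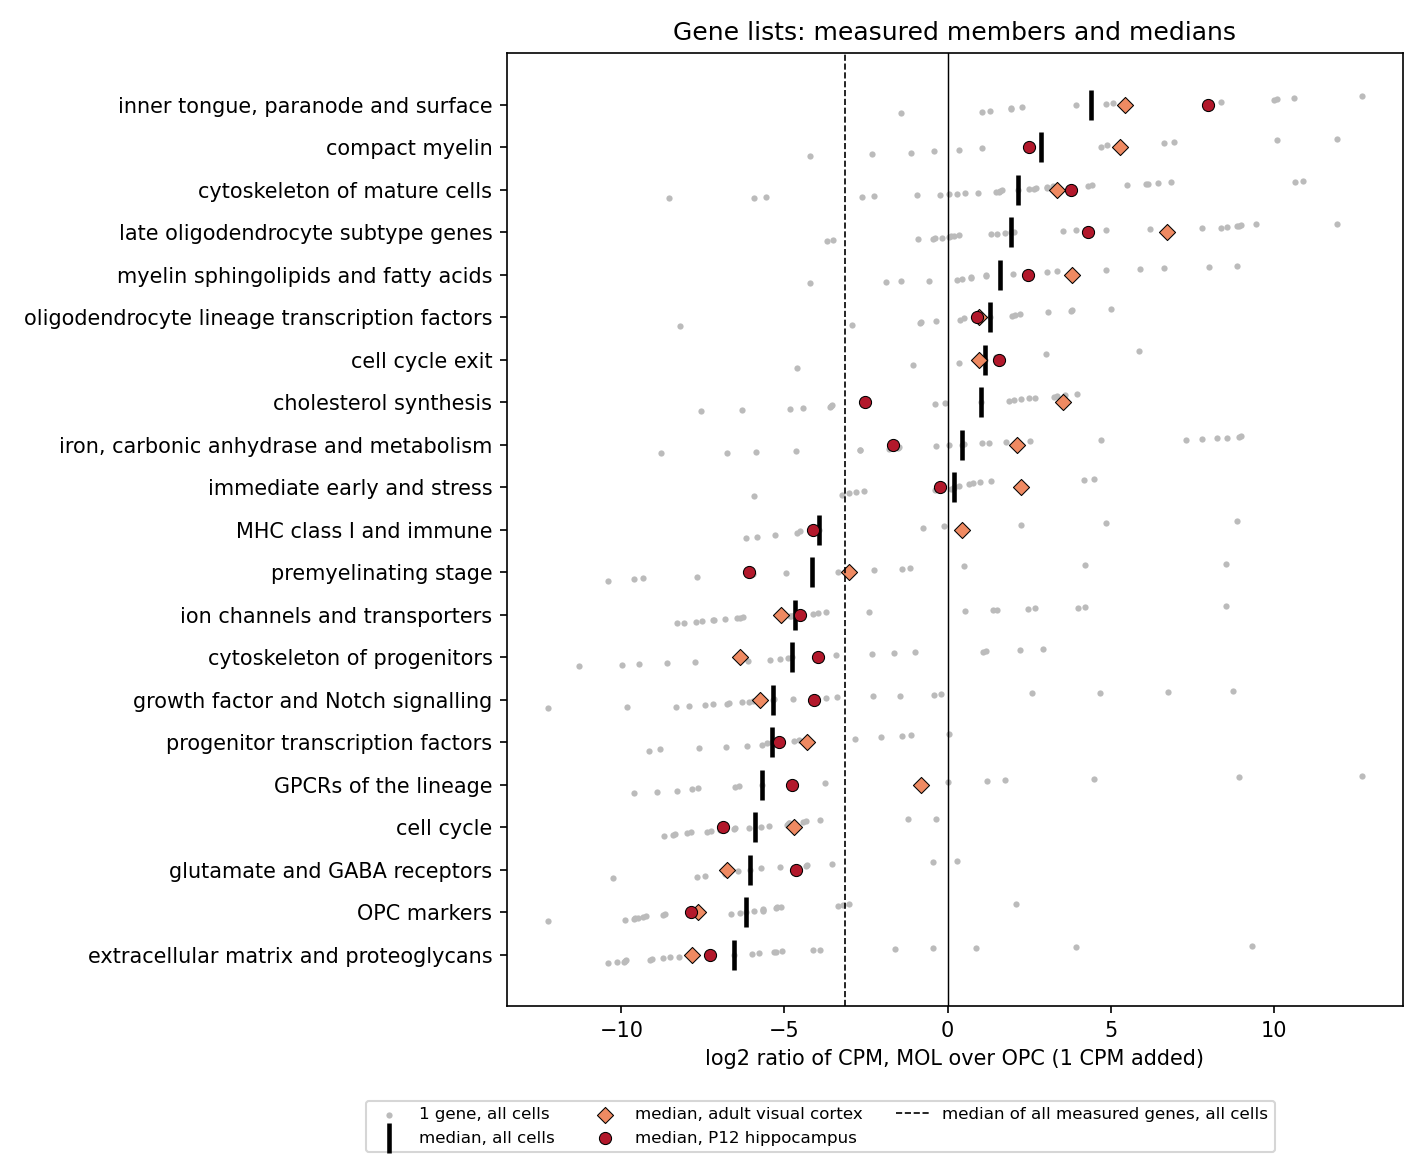
The y axis names 21 gene lists ordered by median; the x axis is the log2 ratio of CPM, MOL over OPC, with 1 CPM added. Grey points are measured genes over all cells, black bars their medians, diamonds and circles the medians within adult visual cortex and P12 hippocampus, and the dashed line the median of all measured genes (-3.15). Sheath lists lie right of 0 (4.40 and 2.87) and OPC marker and matrix lists left of the dashed line (-6.18 and -6.55).

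Between adult and P12 myelinating oligodendrocytes, few sheath genes were called and many others were. Age, region and run of cell IDs differ together between these sets and cannot be told apart. Of 4989 measured genes 958 (19.2%) were called higher in the 6 adult cells and 460 (9.22%) lower, with a median log2 ratio of 2.07. Of the 12 compact myelin genes 0 were called, and of the 14 inner tongue, paranode and surface genes 0 were called higher and 1 lower in adults. The median log2 ratio was 0.55 for the compact myelin list and 1.31 for the inner tongue, paranode and surface list. Mog and Mal differed by less than 2-fold, and Mbp, 14371 CPM in adult and 1858 CPM in P12 cells, had a log2 ratio of 2.95. A higher call also needed at least 4-fold relative to the median of all measured genes, which Mbp did not reach. Sheath genes without a call were thus not all alike in the 2 sets.

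Genes of mature oligodendrocyte subtypes were higher in adults in 12 of 29 measured members and lower in 2, with a median log2 ratio of 3.21 (2.07 for all genes). Dusp1, Egr2 and Fosb among them also stand in the immediate early list. Il33, an alarmin cytokine of nuclei, was read in all 6 adult cells, at 706 to 7435 CPM with a median of 2933 CPM, and in 0 of 15 P12 cells. Serpinb1a, an intracellular protease inhibitor, had 834 CPM in adult and 0.018 CPM in P12 cells. Ptgds, prostaglandin D synthase, had 3458 CPM in adult and 162 CPM in P12 cells, with a log2 ratio of 4.41 that became 3.77 without adult cell 14 and 6.21 without P12 cell 7. Apod, the lipocalin apolipoprotein D, had 5094 CPM in adult and 81.7 CPM in P12 cells, and every adult cell (1742 CPM or more) exceeded every P12 cell (742 CPM or less).

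Iron and metabolism genes were called higher in adults in 9 of 23 measured members and lower in 2 (median log2 ratio 3.83). Fth1 ranged from 5629 to 17477 CPM in adult and from 0 to 1945 CPM in P12 cells, without overlap, at a log2 ratio of 4.99 (4.77 to 5.24 with each cell left out). Of 16 measured immediate early and stress genes, 7 were called higher and 0 lower (median 5.71, and 6.04 with zero groups at their floor). Dusp1, a phosphatase induced by stress, had 625 CPM in adult and 1.92 CPM in P12 cells, and its log2 ratio of 7.75 became 9.14 without the mixed P12 cell 12. Jun, part of the AP-1 factor, had 273 CPM in adult and 0.58 CPM in P12 cells, and its log2 ratio of 7.43 became 6.71 without adult cell 4.

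Cholesterol genes ran the other way, with 0 of 15 measured members called higher and 5 lower in adults (median log2 ratio -1.34). Cyp51, which removes a methyl group from lanosterol, had 0 CPM in adult and 349 CPM in P12 cells, and its log2 ratio of -8.45 became -5.69 without P12 cell 7. By the ranking rule, genes lower in adults included Pfas and Pdxk, enzymes of purine synthesis and of vitamin B6 activation. Pfas had 0 CPM in adult and 1026 CPM in P12 cells and was read in 0 of 6 adult and 12 of 15 P12 cells at 350000 reads, with a log2 ratio of -10.004 that became -9.31 without P12 cell 2. Pdxk had 0 CPM in adult and 961 CPM in P12 cells and was read in 0 of 6 adult and 11 of 15 P12 cells at that depth.

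**Figure D5:**
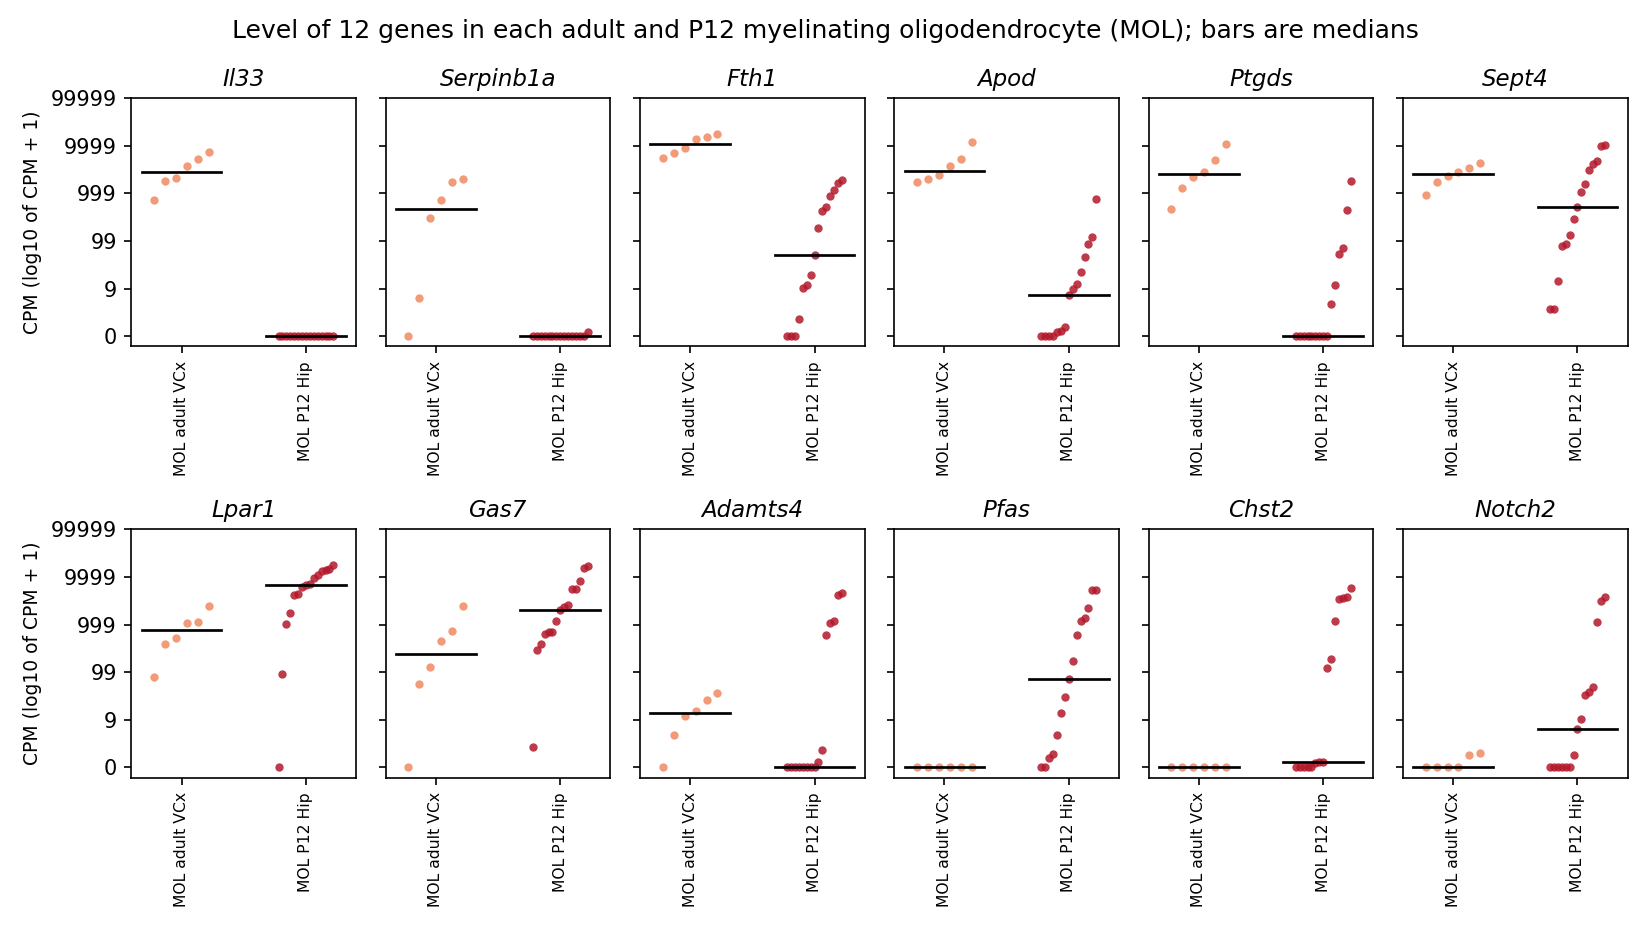
Each point is 1 myelinating oligodendrocyte (MOL), from adult visual cortex (VCx, 6 cells) or P12 hippocampus (Hip, 15 cells); the y axis is CPM on a log10 scale of CPM + 1, and bars are medians. Il33 is read in all adult and no P12 cells, Fth1 and Apod do not overlap, Sept4 is present in both, and Pfas, Chst2 and Notch2 are at or near 0 in adults.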

How the data were processed

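Single cells were sorted, captured on the Fluidigm C1 and their polyadenylated RNA amplified with SMARTer chemistry and made into libraries with Nextera XT, per the labels' protocols. The deposited table holds whole-number counts of reads per gene and cell, not normalized; STAR and HTSeq 0.6.0 and the mm10 build are named in the submitters' processing notes, without their settings. The counts carry no molecular identifiers, and whether counting used strand is not given in the sources used here, so reads of overlapping antisense genes and of near-identical copies (Tubb2a and Tubb2b, Fth1 and its pseudogenes) cannot be told apart. Groups follow the cell type, age and region labels. Gene rows of the 22074 in the table were matched by symbol (21274), by older symbol (743) or kept as given (57), and 9984 had no read in the 37 cells. The libraries of all 333 cells held 374574 to 4849603 reads.

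Reads were summed per cell type and set with Python 3.11.15, numpy 2.4.6 and pandas 2.3.3, and scaled to CPM. Ratios, calls and floors are defined in the text. TMM factors came from edgeR 4.0.16 in R 4.3.3, intervals from scipy 1.17.1 and figures from matplotlib 3.10.9. The pooled calling steps were run on simulated cells with known fold changes. Both simulated types were drawn from OPC levels, without the gap in genes per cell, the shift of the median or the sets of these data. The simulation therefore does not show how the calls perform here, and it did not cover the rule for both sets. With no cell tied to a mouse no test across samples was made, and only counting error is covered by intervals. A few members that count in the lists are not reported here by name. No cells were removed and no doublet caller was run; mixed cells were marked from marker lists. The members and the gene lists were chosen with earlier results of these data known. Beside list members, the text names the 20 genes per direction with the largest ratio among those that held in both sets, had at least 100 CPM in the higher type and a read in at least 50% of its thinned cells, with a share at least 30 points above the other type, leaving out ribosomal and predicted genes, and by the same rule 10 per direction for adult against P12 cells. Alternatives were another pseudocount, minimum, scaling or thinning, single sets, and leaving out the mixed cells, the E18.5 cells or each cell in turn.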

Additional observations from a re-analysis of the deposited data

Results flagged for a closer look

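Adult OPC cell 51 had 36.2% of its reads in its 50 most abundant genes, far above the other adult OPCs, in 1 of 20 sets of cells and measures examined. It is also the shallowest of the 37 libraries and has the highest neuronal marker level among the OPCs, and the part of either in this value was not tested. The P12 myelinating oligodendrocytes and the E18.5 OPCs were not among the sets examined. Their numbers of cells lie outside the range that the rule for outlying values covers.

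Over the 4 OPC sets, 7 of 52 genes examined had 1 set far from the others. The E18.5 OPCs stood apart with 4151 CPM of Dpysl3, 785 CPM of Gap43, 2588 CPM of Ncan, 479 CPM of Kit and 3934 CPM of Ctnnd2, and the P12 hippocampus OPCs with 164 CPM of Tubb2b and 490 CPM of Sox5. The E18.5 values come from 2 cells whose region is uncertain. Single cells carried some of them: the log2 ratio, myelinating oligodendrocytes over OPCs, of Tubb2b was -5.95 and became -3.59 without P12 hippocampus OPC cell 29, that of Sox5 was -7.61 and became -5.72 without cell 44 of the same set, and that of Kit was -6.76 and became -5.54 without E18.5 OPC cell 24. For normally distributed values the rule would mark about 1 in 20 such groups. That rate need not hold for the CPM of 4 sets of few cells, so the number of flags cannot be set against chance.

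Notch2 had a log2 ratio, myelinating oligodendrocytes over OPCs, of -4.42 within adult visual cortex and 6.92 within P12 hippocampus, and this difference was not tested.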

How the results depend on the processing

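Calls over all cells numbered 1065 higher under TMM scaling, 1175 under median-of-ratios scaling and 1069 within adult visual cortex alone, and 2660 lower with a pseudocount of 0.1 CPM, 840 with 10 CPM, 2839 with no minimum and 949 within adult visual cortex. Calls held in both sets numbered 673 and 725 higher under the same scalings, and 1072, 424 and 1311 lower with 0.1 CPM, 10 CPM and no minimum. Adult against P12 calls numbered 533 higher with 10 CPM, and 704 and 747 lower under TMM and median-of-ratios scaling. The cause of these shifts was not tested. Leaving out each cell in turn gave 485 to 560 higher and 1581 to 1751 lower over all cells, 322 to 387 and 602 to 731 held in both sets, and 801 to 948 and 420 to 515 for adult against P12.

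The cholesterol median log2 ratio was -0.083 with a minimum of 50 CPM or none and -2.54 within P12 hippocampus, and -0.52 to 1.12 with each cell left out. The cell cycle exit median was -0.47 with no minimum and -0.42 without the mixed cells, and the MHC and immune median was 0.45 within adult visual cortex. Within adult visual cortex alone the log2 ratios of Sqle, Olig2, Chst2 and Notch2 were 0.29, -1.62, -5.59 and -4.42. Median genes per cell were 1182 in P12 and 2287.5 in adult myelinating oligodendrocytes without thinning, and 1783.5 in adult ones at 100000 reads. Of 118 genes called over all cells among the 148 checked, 112 had the same direction under every alternative other than leaving out each cell. The call rule already required the same direction with each cell left out. Many of these genes were also named because their calls held in both sets. The count is therefore largely set by how the genes were chosen and is no measure of robustness. No paired analysis was possible because no cell is tied to a mouse and no sample-level test was made. Depth and the small number of cells limit genes read in few cells, and 0 reads do not show absence.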
